A study of Mus musculus with 16 samples.

Results

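Interferon stimulated genes and interferon-inducible GTPases were followed through 16 RNA-seq libraries of 4T1 mammary tumors. The set was a fixed list of 38 gene symbols, which, like the classes below, was chosen with earlier results of these data known. Of the 38, 37 were present among the 17147 genes that all 3 deposited tables share, and Mx2 was not analysed here. All 37 had a mean value of at least 1 in every fit and so passed the filter on low values. For description they were divided by textbook role into a type I class of 20 measured genes (the Ifit and Oas families, the Isg15 system, antiviral effectors, RNA sensors and Irf7), a GTPase class of 10 genes (6 guanylate-binding proteins and 4 immunity-related GTPases), and 7 genes assigned to neither class (Irf1, Irf9, Stat2, Bst2, Zbp1, Parp14 and Ido1).

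Tumors were raised in wild-type female BALB/c mice, 6 weeks old, from 4T1, a mammary carcinoma line of that strain used to model triple-negative disease. An injection of 400000 cells into the mammary fat pad gave the tumors labelled SC, and 200000 cells under the liver capsule gave those labelled Liver. Mice of the treated groups received paclitaxel, a microtubule-stabilising drug, at 10 mg/kg into the peritoneum, 5 times a week for 2 weeks. Tumors that had grown for 15 days were digested, and poly(A) RNA of the whole cell suspension was sequenced, so host cells were measured with the carcinoma cells. The 4 groups were pre_SC (untreated fat pad tumors, n = 3), post_SC (treated, n = 3), pre_Liver (untreated liver tumors, n = 5) and post_Liver (treated, n = 5), and all share strain, sex, genotype and cell line. The labels give a saline control arm, but they do not say whether the untreated libraries were that arm at the same tumor age, nor that each library was a separate mouse. P-values therefore measure the spread between these libraries, and a treatment difference cannot be told apart from a difference in tumor age. Likewise, a site difference cannot be told apart from the number of cells injected, which differed between the sites.

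Type I interferons signal through the receptor Ifnar1/Ifnar2 to a complex that contains Stat2 and Irf9 and binds interferon-stimulated response elements (ISRE) and switches on antiviral genes such as the Ifit and Oas families. Interferon gamma, made by T and NK cells, signals through Ifngr1/Ifngr2 to gamma-activated sites (GAS). It induces Irf1, the guanylate-binding proteins (Gbp) and the immunity-related GTPases (Igtp, Irgm1, Irgm2, Iigp1). Effector GTPases of these families attack the vacuoles of intracellular pathogens. The division is one of emphasis, since most of these genes answer to both kinds of interferon.

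The promoters of the 3 marker genes are shown because they carry the response elements that separate the pathways in textbooks. Each stretch covers the 150 bases before the RefSeq transcription start on GRCm38.p6, plus strand, and capitals mark matches to GAAANNGAAA on either strand (ISRE letters) or TTCNNNGAA, which reads the same on both strands (GAS letters). The stretches lie at chr19:34640739-34640888, chr11:53769864-53770013 and chr11:58199406-58199555.
Ifit1: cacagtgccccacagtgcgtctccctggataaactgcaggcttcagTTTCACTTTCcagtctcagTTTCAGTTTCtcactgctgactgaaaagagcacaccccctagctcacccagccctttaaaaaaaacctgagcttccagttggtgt
Irf1: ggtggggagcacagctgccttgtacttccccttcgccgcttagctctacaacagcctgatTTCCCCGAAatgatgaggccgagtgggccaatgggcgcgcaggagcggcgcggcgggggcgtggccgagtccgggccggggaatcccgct
Igtp: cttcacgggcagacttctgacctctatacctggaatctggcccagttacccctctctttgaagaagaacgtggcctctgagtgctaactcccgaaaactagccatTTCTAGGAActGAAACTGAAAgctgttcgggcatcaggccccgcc
The Ifit1 stretch holds ISRE letters that begin 104 and 85 bases before the start. That of Irf1 holds GAS letters 90 bases before it, and that of Igtp holds both, at 45 (GAS) and 34 (ISRE) bases. Matches to each motif were sought without regard to the other. A match describes the letters only and does not show a bound site.

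RefSeq gave a 300-base window, from 250 bases before to 50 after the start, for 27 of the 37 measured genes. ISRE letters occurred in 18 of the 27, against 3.99% of the 27025 genes with a window, and GAS letters in 8, against 9.55%. All 7 GTPases with a window (Gbp2, Gbp3, Gbp5, Gbp7, Igtp, Irgm1 and Irgm2) held ISRE letters and 4 of them GAS letters as well. Among the 16 type I genes with a window, 9 held ISRE letters, 2 held GAS letters and 1 held both (Oas1a). Windows were not at hand for Oas2, Usp18, Rtp4, Zbp1, Parp14, Dhx58, Gbp4, Gbp6, Iigp1 and Ido1.

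In the GENCODE annotation of GRCm38, Ifit1 lies at chromosome 19, 34640871 to 34650009, plus strand, Irf1 at chromosome 11, 53770014 to 53778374, plus strand and Igtp at chromosome 11, 58199556 to 58207591, plus strand. The 4 Ifit genes sit within 1 stretch of chromosome 19, from 34550694 to 34650009. Annotated Irgm2 (58199618 to 58222782, same strand) overlaps Igtp, so reads in the overlap may count for either gene. Some values are uncertain because transcripts share sequence. Of the 50-base words of Ifit3, 51.2% also occur in Ifit3b. Oas1a shares 57.6% with Oas1g and Gbp6 shares 65.0% with Gm43302.

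The libraries differed in cell content, and depth is unknown because only FPKM and TPM were at hand. The summed level of 10 hepatocyte markers ran from 77.3 to 172 TPM in the 6 fat pad libraries. In the liver it reached 147293 and 149479 TPM in pre_Liver replicates 4 and 5, against 35386 to 94869 TPM in the other 3 untreated libraries, and in treated tumors it ran from 3936 to 93251 TPM, highest in replicate 4. Summed neutrophil markers stood at 114 to 908 TPM in untreated and 1947 to 15036 TPM in treated liver tumors, and all 5 of that list were higher after treatment. In bulk RNA, fewer cells of a type cannot be told apart from less RNA per cell. No marker was at 0 in every library of a group, and the part of any of these differences in the results that follow was not tested unless a value is given.

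The 3 markers showed different patterns over the groups. Ifit1, an RNA-binding antiviral protein, averaged 74.6 ± 18.3 TPM (SD, n = 3) in untreated and 96.9 ± 110.1 TPM (n = 3) in treated fat pad tumors. In the liver its mean was 36.97 ± 25.6 TPM before and 85.7 ± 38.7 TPM after treatment (SD, n = 5 each). The SD of the treated fat pad group exceeded its mean because 1 library stood far above the others. Irf1, a transcription factor and early target of interferon gamma, averaged 314 ± 27.3 and 179.99 ± 22.2 TPM in the fat pad and 146 ± 85.5 and 153 ± 43.6 TPM in the liver. Igtp averaged 378 ± 59.4 and 162 ± 82.6 TPM in the fat pad, 247 ± 116 and 224 ± 56.4 TPM in the liver. For Irf1 and Igtp the untreated fat pad group was the highest of the 4 means, and for Ifit1 the treated fat pad group was, through that 1 library.

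**Figure D1:**
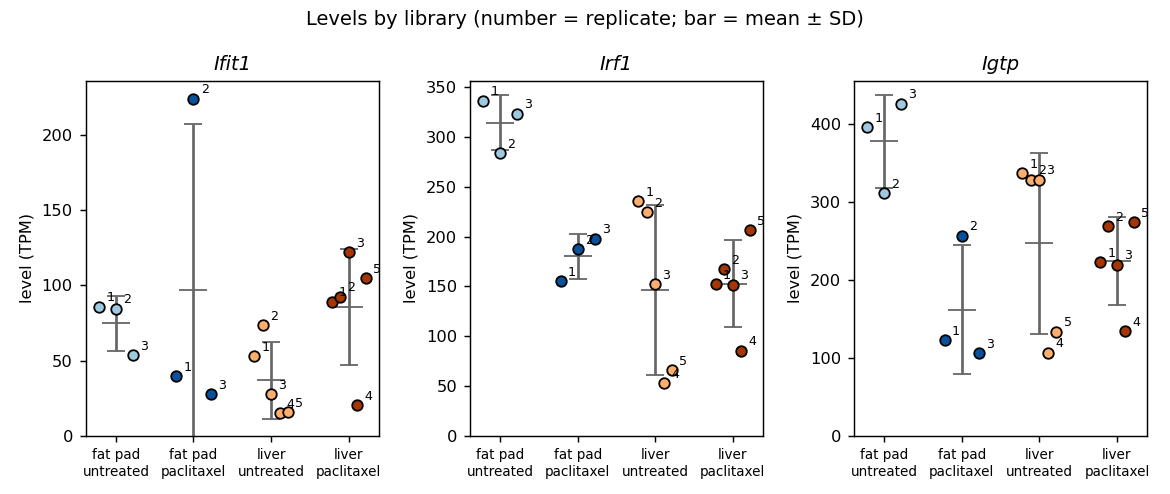
Level in TPM (y axis) of Ifit1, Irf1 and Igtp in each of 16 libraries (points, numbered by replicate) for the 4 groups, with the mean and SD as bars. Ifit1 in treated fat pad replicate 2 (224 TPM) stands above every other library, while Irf1 and Igtp are lower in all 3 treated than in all 3 untreated fat pad libraries.

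The first comparison asked how fat pad tumors differed after paclitaxel. Of the 37 genes, 3 fell and none rose at a limma adjusted p under 0.05 over all 13364 genes tested, of which 4.27% were called lower and 2.67% higher. They were Irf1, the guanylate-binding protein Gbp4 and Igtp. All 37 estimates were below 0, against 52.7% of all genes, with a median of −0.79 on the log2 scale against −0.03 over all genes. In 10 of the 37 the treated libraries lay below every untreated one, against 18.7% of all genes. An unadjusted p under 0.05 was held by 20 of the 37 and by 3657 of the 13364 genes tested. The count of calls moved with single libraries. It was 23 without post_SC replicate 2 (against 4.01% of all genes called lower) and 1 (Irf1) without post_SC replicate 1 (1.98%) or replicate 3 (3.28%). It was 0 without pre_SC replicate 1 (0.381%) or replicate 3 (0.443%), and 2 (Gbp4 and Irf1) without pre_SC replicate 2 (0.94%). Without pre_SC replicate 1, 11 of the 37 had an unadjusted p under 0.05, against 2876 of 13382 genes. Without pre_SC replicate 3, 17 had one, against 2519 of 13305 genes. Endothelial markers moved with treatment, with 3 of 5 called higher and sums of 76.7 to 115 TPM untreated and 188 to 231 TPM treated. Neutrophil markers summed to 81.3 to 256 TPM untreated and 69.8 to 77.4 TPM treated, and none of the 4 tested passed (1 had an unadjusted p under 0.05). Their part in the result was not tested.

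Irf1 stood at 336, 284 and 323 TPM in untreated replicates 1 to 3 and at 155, 187 and 198 TPM in treated replicates 1 to 3. The groups did not overlap. The log2 difference was −0.80 ± 0.13 (SE; limma adjusted p = 0.0177). Among the other transcription factors of the set, Stat2, a subunit of the ISRE-binding complex, stood at 149, 132 and 148 TPM untreated and 63.5, 117 and 46.8 TPM treated. Those groups did not overlap either, but the estimate of −1.01 ± 0.30 had an adjusted p of 0.0812. Irf9, its DNA-binding partner, gave −0.47 ± 0.18 (adjusted p = 0.153) and Irf7, which amplifies type I interferon output, −0.53 ± 0.23 (0.182).

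Gbp4 stood at 373, 204 and 398 TPM untreated and 85.3, 150.2 and 122 TPM treated, with no overlap and a log2 difference of −1.42 ± 0.29 (adjusted p = 0.0354). The other 5 guanylate-binding proteins did not pass the test. Their estimates ran from −0.51 ± 0.30 for Gbp7 to −1.44 ± 0.38 for Gbp6, and their lowest adjusted p values were 0.0633 (Gbp2) and 0.0639 (Gbp6). Treated and untreated libraries were also separate for Gbp2 and Gbp6. Among the immunity-related GTPases, Igtp stood at 396, 311 and 426 TPM untreated and 122, 257 and 106 TPM treated. The lowest untreated value was above the highest treated one, that of replicate 2, and the log2 difference was −1.32 ± 0.31 (adjusted p = 0.0496). Irgm2, Irgm1 and Iigp1 gave −1.10 ± 0.33, −0.84 ± 0.29 and −0.60 ± 0.28 and did not pass.

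None of the 20 type I genes passed in the fat pad, where 6 had an unadjusted p under 0.05, against 3657 of 13364 genes. Ifit1 stood at 85.8, 84.5 and 53.5 TPM untreated and 39.5, 224 and 27.5 TPM treated. Treated replicates 1 and 3 were below all untreated libraries and replicate 2 above all of them, so the estimate was −0.21 ± 0.70 (adjusted p = 0.866), and it turned positive when replicate 1 (0.11) or replicate 3 (0.37) was left out. Ifit2, a paralog, had levels of 49.2, 35.8 and 36.98 TPM and 19.5, 43.97 and 18.1 TPM, with replicate 2 inside the untreated range (−0.67 ± 0.33, adjusted p = 0.228). Oas3, which makes the oligoadenylate messenger that activates RNase L, was at 86.4, 83.9 and 84.1 TPM and 26.9, 78.1 and 28.5 TPM. Its groups did not overlap although replicate 2 was near the untreated level (−1.09 ± 0.37, adjusted p = 0.112).

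Isg15, a ubiquitin-like modifier, was at 360.2, 419 and 273 TPM untreated and 95.8, 379 and 79.5 TPM treated (−1.27 ± 0.54, adjusted p = 0.178). Dhx58 (the RNA sensor LGP2) was at 68.1, 65.7 and 51.5 TPM and 26.8, 59.05 and 19.8 TPM (−0.93 ± 0.36, adjusted p = 0.149). In both, treated replicates 1 and 3 were low and replicate 2 fell inside the untreated range. Zbp1, a sensor of Z-form nucleic acid that can start necroptosis, was at 269, 312 and 289.8 TPM and 139, 227 and 115 TPM without overlap (−0.91 ± 0.23, adjusted p = 0.0602). Ido1, a tryptophan-degrading enzyme induced by interferon gamma, was low, at 4.96, 6.41 and 25.2 TPM and 3.701, 6.86 and 1.63 TPM. Its highest value was that of untreated replicate 3, and its groups overlapped (−1.19 ± 0.61, adjusted p = 0.245).

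By class, the median log2 difference was −0.55 for the 20 type I genes, −0.98 for the 10 GTPases and −0.80 for the 7 others. Called were 2 of the 10 GTPases, 1 of the 7 others and none of the type I genes. The classes were not tested against each other.

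**Figure D2:**
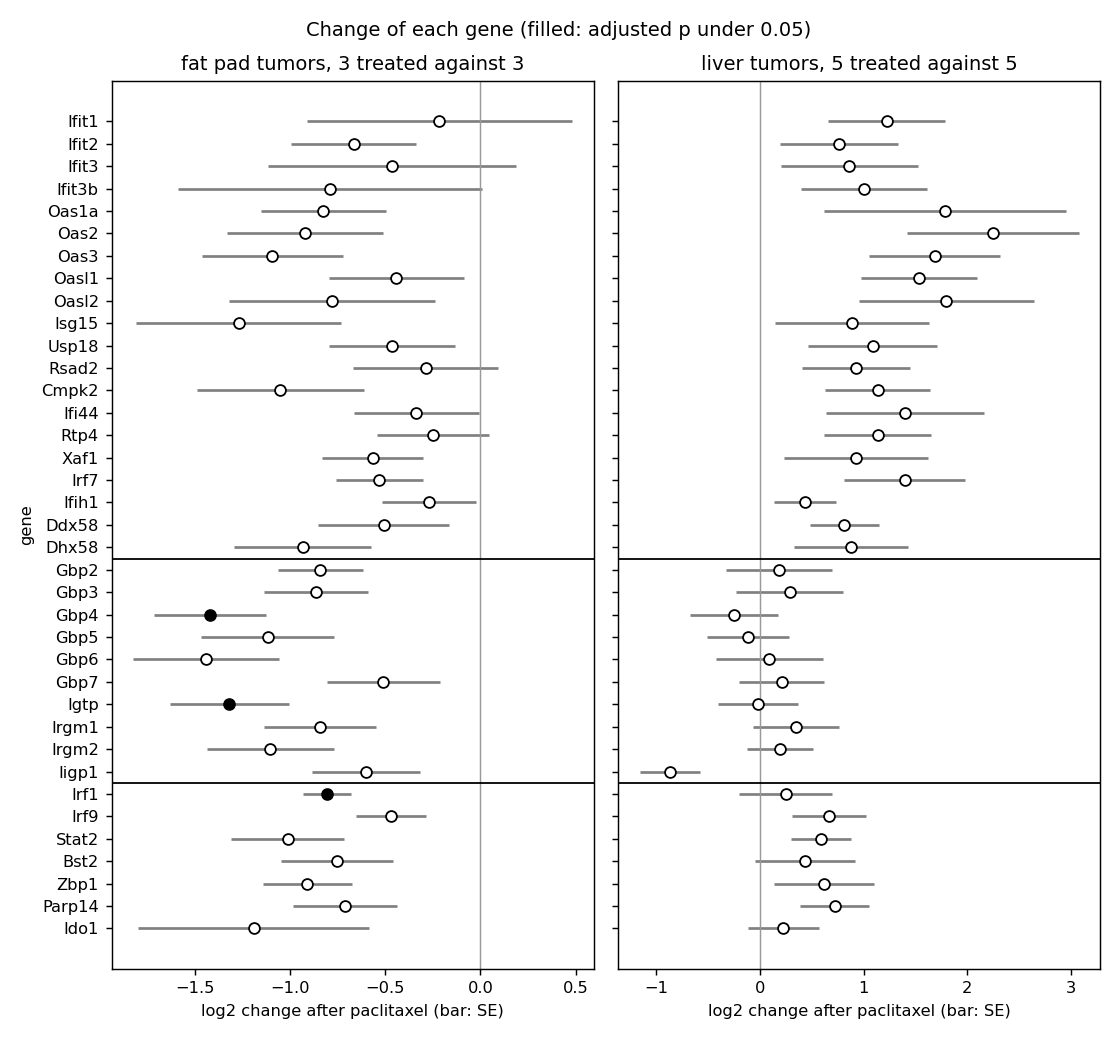
Log2 difference after paclitaxel (x axis) with its SE for each of the 37 genes (y axis; type I class above the first line, GTPase class between the lines, neither class below), for fat pad (left) and liver (right) tumors; filled points passed an adjusted p of 0.05. All 37 fat pad estimates are below 0 with 3 filled (Gbp4, Igtp and Irf1), while 33 liver estimates are above 0 with none filled.

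Treated fat pad replicate 2 was examined by itself, because the choice of the gene set already pointed to its Ifit1 level, and with 1 library no test applies. In treated replicates 1 and 3, all 37 genes lay below every untreated fat pad library, against 26.4% of all genes. Replicate 2 was the highest of the 3 treated libraries for 36 of the 37, against 37.7% of all genes, Irf1 being the exception. For 27 genes it was within or above the untreated range while replicates 1 and 3 were below it, against 7.71% of all genes. Those 27 were 19 of 20 type I genes, 5 of 10 GTPases and 3 of 7 others. Ifit1, whose level had pointed to this library, is itself counted among the 36 and the 27.

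Replicate 2 held the highest value of all 6 fat pad libraries for 10 of the 37 genes, against 19.6% of all genes, and all 10 were of the type I class. Over the mean of the other treated libraries it was more than 2-fold higher for 24 genes (17 type I, 5 GTPase, 2 other), against 4.82% of all genes. Ifit1 is counted among the 10 and the 24, as are Ifit3 and Ifit3b, whose transcripts share sequence. The ratios of value + 1 ran from 1.06 for Irf1 to 8.597 for Ifit3b, with Ifit1 at 6.52. Against the untreated mean, the median ratio in replicate 2 was 1.17 for type I genes and 0.792 for GTPases. The corresponding medians were 0.523 and 0.427 in replicate 1, and 0.412 and 0.387 in replicate 3.

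**Figure D3:**
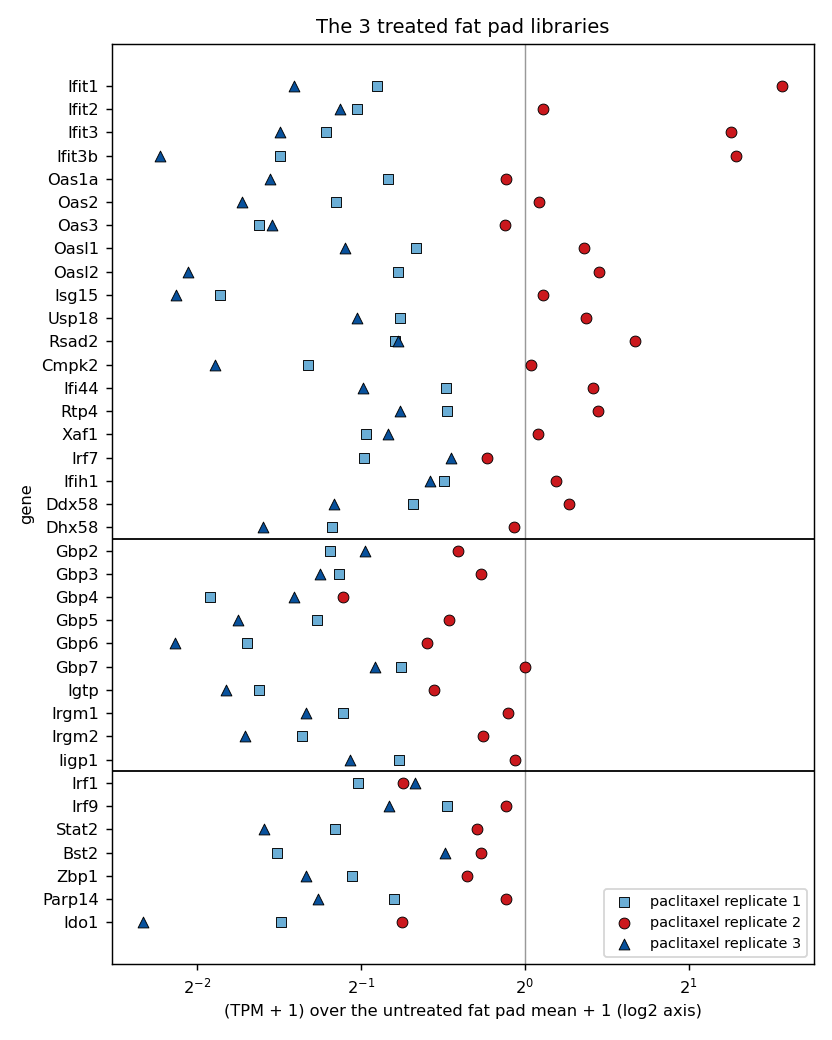
Value + 1 in each treated fat pad library over the untreated mean + 1 (x axis, log2 scale; the line marks no difference) for the 37 genes (y axis, classes divided by lines). Replicates 1 and 3 lie left of the line for every gene, while replicate 2 (red circles) reaches or passes it for most type I genes and stays left of or on it for the GTPases.

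Values outside the set were read for the same library. Ifng, which encodes interferon gamma, was at 1.78, 3.33 and 1.55 TPM in treated replicates 1 to 3 and at 4.39, 2.91 and 4.58 TPM in untreated ones. The 7 T and NK cell markers, Ifng among them, summed to 102 TPM in replicate 2 and to 41.4 to 61.0 TPM in the other 5 fat pad libraries. Cd3e, Cd3d, Cd8a and Nkg7 were highest of all fat pad libraries in replicate 2, at 14.7, 8.96, 24.2 and 48.7 TPM. The NK cell markers Ncr1 and Klrb1c, at 1.52 and 0.758 TPM, were above the other treated libraries. Both were below every untreated one (lowest 1.88 and 0.979 TPM). Summed plasmacytoid dendritic cell markers stood at 84.5 TPM, against 123 and 94.2 TPM in replicates 1 and 3, but Tcf4 made up nearly all of each sum (82.1, 121 and 93.1 TPM). The other markers of that list, Siglech, Pacsin1 and Ccr9, were low. Each was highest of the treated libraries in replicate 2, at 1.36, 0.682 and 0.284 TPM, against at most 1.16, 0.639 and 0.269 TPM in replicates 1 and 3. In untreated replicates 1 to 3 Siglech stood at 4.04, 1.90 and 1.22 TPM and Ccr9 at 1.33, 0.602 and 0.539 TPM, all of Ccr9 above replicate 2. Pacsin1 was at 0.492, 0.525 and 0.460 TPM there, all below it. The part of these markers in the levels of replicate 2 was not tested.

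The 23 genes called lower without that library were 11 of 20 type I genes, 8 of 10 GTPases and 4 of 7 others. Replicate 2 was singled out with its values known, and leaving out any other fat pad library gave 0 to 2 calls. The lowest adjusted p values were those of Oas3 (−1.58 ± 0.13, adjusted p = 0.00589), Irgm2 (−1.53 ± 0.14, 0.00836), Igtp (−1.71 ± 0.16, 0.00856) and Isg15 (−1.97 ± 0.20, 0.00985). Ifit1 gave −1.12 ± 0.26 (adjusted p = 0.0508) and did not pass. The medians were then −1.09 for type I genes and −1.34 for GTPases.

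The second comparison set untreated liver tumors against untreated fat pad tumors. Of the 37 genes, 12 were lower in the liver and none higher at an adjusted p under 0.05, against 33.5% lower and 15.4% higher of the 13727 genes tested. The share of called genes in the set was therefore near the background. Estimates of 36 genes were below 0, against 70.5% of all genes, with a median of −1.18 against −0.52 over all genes. In 18 of the 37 the liver libraries lay below every fat pad library, against 35.2% of all genes. The called genes were Oas2, Oas3, Oasl2, Usp18, Rtp4 and Xaf1 of the type I class, Gbp2, Gbp4 and Irgm2 of the GTPases, and Stat2, Irf9 and Parp14.

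Stat2 had the lowest adjusted p. It stood at 94.6, 95.5, 73.7, 54.1 and 46.4 TPM in pre_Liver replicates 1 to 5, all below the 132 TPM of the lowest fat pad library, with a difference of −1.04 ± 0.27 (adjusted p = 0.0179). Parp14, a mono-ADP-ribosyltransferase, was at 94.2, 76.8 and 73.1 TPM in the fat pad and 51.8, 60.8, 38.2, 23.1 and 21.4 TPM in the liver (−1.16 ± 0.36, adjusted p = 0.0303). Oas3 was at 47.4, 49.3, 20.7, 5.32 and 6.37 TPM in the liver, the last 2 values being the lowest of the 8 untreated libraries (−2.19 ± 0.72, adjusted p = 0.037). For these 3 genes no liver library reached the fat pad range. Usp18, which removes Isg15 from proteins and dampens Ifnar signalling, was at 133, 158 and 136 TPM in the fat pad and 89.8, 86.8, 47.4, 13.6 and 19.6 TPM in the liver (−1.82 ± 0.61, adjusted p = 0.0395).

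Among the GTPases, Gbp4 was at 179, 190.4, 142, 60.7 and 57.5 TPM in untreated liver tumors, all below the fat pad libraries (−1.50 ± 0.48, adjusted p = 0.0331). Irgm2, a regulator of the effector GTPases, was at 176, 163 and 168 TPM in the fat pad and 114, 130.03, 113, 46.8 and 61.4 TPM in the liver, without overlap (−0.98 ± 0.35, adjusted p = 0.0448). Iigp1, an effector GTPase, had the only estimate above 0. Its levels were 196, 120.3 and 181 TPM in the fat pad and 295, 263, 411, 158 and 217 TPM in the liver (0.64 ± 0.32, adjusted p = 0.113). Its liver values exceeded all 3 fat pad values in 4 of 5 libraries, and pre_Liver replicate 4 was inside their range.

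The markers did not pass. Ifit1 gave −1.25 ± 0.53 (adjusted p = 0.0748), Irf1 −1.36 ± 0.51 (0.054) and Igtp −0.78 ± 0.43 (0.149). Ifit3b was the Ifit gene with the lowest adjusted p. It was at 52.96, 55.4 and 37.8 TPM in the fat pad and 31.4, 43.6, 13.96, 8.51 and 8.13 TPM in the liver, overlapping in 1 liver library (−1.47 ± 0.54, adjusted p = 0.0514). Ddx58, the RNA sensor RIG-I, was at 61.2, 58.8 and 43.4 TPM and 38.02, 54.7, 24.6, 22.03 and 19.9 TPM (−0.86 ± 0.34, adjusted p = 0.0603). Ido1 was at 7.27, 4.39, 4.08, 2.73 and 3.89 TPM in the liver (−1.005 ± 0.48, adjusted p = 0.102).

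The liver values were lowest where hepatocyte RNA was highest. In pre_Liver replicates 4 and 5 the median type I level was 14.7 and 15.5 TPM, against 27.3 to 76.9 TPM in replicates 1 to 3 and 79.8 to 95.5 TPM in the untreated fat pad. For GTPases the medians were 50.9 and 55.9 TPM, against 127 to 160.2 TPM and 142 to 186 TPM. The deposited untreated table also shifts these 2 libraries by a constant per gene of the opposite sign to that of the other 6. With pre_Liver replicates 1 to 3 alone against the fat pad, 13 genes were lower, against 20.5% of all genes, with medians of −0.72 for type I genes and −0.36 for GTPases. Iigp1 was higher there (0.95 ± 0.25, adjusted p = 0.0251), against 14.7% of all genes called higher. Without pre_Liver replicate 2, 31 genes were lower, against 52.1% of all genes. With libraries rescaled by the median of ratios, 3 were lower (Stat2, Parp14 and Irf9) and Iigp1 was higher, against 16.3% and 24.7% of all genes. Leaving out any 1 untreated fat pad library, or pre_Liver replicate 3, 4 or 5, left 0 to 2 genes called lower. Over all genes, those fits called from 881 of 13711 (without pre_SC replicate 1) to 2658 of 13759 (without pre_Liver replicate 4) lower. Summed carcinoma markers were 4537 to 4659 TPM in the untreated fat pad and 551 to 2711 TPM in untreated liver tumors.

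The third comparison asked how liver tumors differed after paclitaxel. None of the 37 genes passed in limma, against 2.24% higher and 1.41% lower of the 13008 genes tested. An unadjusted p under 0.05 was held by 7 of the 37 and by 4123 of the 13008. The share in the set was therefore below the background. Estimates were above 0 for 33 genes and below 0 for 4, against 23.7% of all genes below 0, and the median over all genes was itself above 0, at 0.37. The type I class had a median of 1.11 and all 20 estimates above 0, from 0.43 ± 0.30 for Ifih1 to 2.24 ± 0.83 for Oas2. Carcinoma epithelium markers also had 6 of 6 estimates above 0 (median 1.30), none of which passed (1 had an unadjusted p under 0.05). Their sums ran from 551 to 2711 TPM untreated and from 1038 to 3207 TPM treated, and their part in the result was not tested. The GTPase class had a median of 0.14, with 4 of 10 estimates below 0 (Gbp4, Gbp5, Igtp and Iigp1). No gene of the set had treated and untreated libraries that did not overlap, against 5.16% higher and 1.47% lower of all genes. When each library was rescaled by the median of ratios, the median of all genes became 0.05, that of type I genes 0.75 and that of GTPases −0.23, with all 10 below 0.

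The Oas genes had the largest estimates. Oasl1, an Oas-like protein without enzyme activity that restrains Irf7 translation, stood at 49.6, 58.8, 23.2, 9.22 and 11.8 TPM in untreated replicates 1 to 5 and 90.2, 93.9, 112, 24.5 and 89.9 TPM in treated replicates 1 to 5. Treated replicates 1, 2, 3 and 5 were above every untreated library, and replicate 4 was inside the untreated range (1.53 ± 0.56, adjusted p = 0.113). Oas2 was at 63.97, 80.2, 26.97, 7.204 and 5.97 TPM and 77.8, 275, 331, 32.2 and 105 TPM, with post_Liver replicates 2 and 3 far above the rest (2.24 ± 0.83, adjusted p = 0.114). Oas3 was at 77.6, 86.1, 91.6, 22.7 and 71.2 TPM after treatment (1.68 ± 0.63, adjusted p = 0.116).

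Ifit1 stood at 52.98, 73.6, 27.5, 14.9 and 15.8 TPM untreated and 88.98, 92.5, 122, 20.4 and 105 TPM treated. The same 4 treated libraries exceeded all untreated ones and replicate 4 did not (1.22 ± 0.56, adjusted p = 0.162). Irf7 was at 375, 428, 185, 67.1 and 84.7 TPM and 563, 579, 589, 178 and 658 TPM (1.40 ± 0.58, adjusted p = 0.138). Cmpk2, a mitochondrial nucleotide kinase beside Rsad2 on chromosome 12, was at 32.1, 38.5, 14.2, 6.19 and 8.04 TPM and 47.9, 44.1, 46.6, 14.8 and 47.8 TPM (1.14 ± 0.50, adjusted p = 0.153). Both repeated that order, with 4 treated libraries on top and replicate 4 among the untreated values.

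Usp18 was at 88.4, 130.2, 140.5, 25.1 and 124 TPM after treatment, with 3 treated libraries above all untreated ones (1.09 ± 0.62, adjusted p = 0.227). Ddx58 was at 38.02, 54.7, 24.6, 22.03 and 19.9 TPM untreated and 53.1, 67.1, 76.2, 28.6 and 56.1 TPM treated (0.81 ± 0.33, adjusted p = 0.132). Its treated replicates 2, 3 and 5 were above the untreated range. Ido1 was at 7.23, 8.58, 3.47, 1.56 and 9.63 TPM after treatment and overlapped its untreated values (0.23 ± 0.34, adjusted p = 0.606).

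The markers linked to interferon gamma had smaller estimates, and their difference from the type I genes was not tested. Irf1 stood at 235, 224, 152, 52.98 and 65.5 TPM untreated and 152, 167, 152, 85.5 and 206 TPM treated, the treated values lying inside the untreated range (0.25 ± 0.45, adjusted p = 0.665). Igtp was at 337, 328, 328, 107 and 133 TPM and 223, 269, 219, 134 and 274 TPM (−0.02 ± 0.39, adjusted p = 0.968), and Gbp4 at 117, 96.6, 89.7, 46.9 and 150.2 TPM after treatment (−0.25 ± 0.42, adjusted p = 0.653). For these 2, untreated replicates 1 to 3 were high and 4 and 5 low, with most treated values between. Iigp1 had the lowest adjusted p of the set. It was at 171, 118, 104, 117 and 215 TPM after treatment, with 3 of 5 treated values below every untreated one (−0.87 ± 0.29, adjusted p = 0.0948).

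The liver result depended on which untreated libraries entered. Against pre_Liver replicates 4 and 5 alone, 27 of the 37 genes were higher after treatment (18 of 20 type I, 3 of 10 GTPases, 6 of 7 others), against 39.0% of all genes. The class medians were then 2.24 and 0.98. Against pre_Liver replicates 1 to 3 alone none passed, and 3 had an unadjusted p under 0.05, against 1489 of 13114 genes. The medians were then 0.39 for type I genes and −0.58 for GTPases, all 10 of which were below 0. Without pre_Liver replicates 4 and 5 and post_Liver replicate 4, the libraries of each group richest in hepatocyte RNA, none passed. Of the 37, 17 had an unadjusted p under 0.05 there, against 2663 of 13133 genes, and the medians were 0.79 and −0.32. That last setting was chosen after seeing the data. Leaving out pre_Liver replicate 2 alone called 4 type I genes higher (Ddx58, Oasl1, Oas3 and Oas2), against 19.3% of all genes. Leaving out post_Liver replicate 4 alone called 3 (Oasl1, Ifit1 and Ddx58), against 7.22%.

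The gap between the classes was also read within each library. A score was taken as the median, over the genes of a class, of the log2 value minus that gene's mean in the untreated libraries of the same site, and scores were not tested. The type I score was 1.35, 1.67, 1.84, −0.59 and 1.65 in post_Liver replicates 1 to 5, against 1.05, 1.29, 0.09, −1.33 and −1.03 in pre_Liver replicates 1 to 5. The GTPase score was 0.33, 0.36, 0.15, −0.94 and 0.61 in the treated and 0.68, 0.71, 0.40, −0.94 and −0.80 in the untreated libraries. The median of the same deviation over all genes was 0.41, 0.51, 0.50, 0.01 and 0.38 in the treated libraries. In the untreated ones it was 0.18, 0.41, 0.01, −0.24 and −0.34. Type I minus GTPase came to 1.02, 1.31, 1.69, 0.34 and 1.03 after treatment and to 0.37, 0.58, −0.31, −0.39 and −0.23 before it. Replicate 4 apart, every treated value was above every untreated one. The 2 treated libraries with the least hepatocyte RNA and the highest summed neutrophil markers, replicates 2 and 3, had the 2 largest differences. S100a8 and S100a9 made up most of those neutrophil sums. Ly6g was also highest in these 2 libraries. Csf3r and Cxcr2 were lower in treated replicate 3 (102 and 36.6 TPM) than in treated replicate 1 (112 and 48.9 TPM). Whether cell content sets the differences was not tested.

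All 20 type I genes had their highest liver value in a treated library, against 73.4% of all genes, and 16 had it in post_Liver replicate 3, against 22.6%. Of the 10 GTPases, 9 peaked in an untreated library, against 26.6% of all genes, and 5 of these in pre_Liver replicate 2, against 8.5%. Gbp5 peaked in post_Liver replicate 5.

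In the fat pad, type I minus GTPase was −0.03, 0.50 and −0.41 in untreated and 0.28, 0.57 and 0.08 in treated libraries, which overlapped. Replicate 2 had a type I score of 0.25 and a GTPase score of −0.32. In replicates 1 and 3 the scores were −0.91 and −1.26 for type I genes, and −1.20 and −1.34 for GTPases.

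**Figure D4:**
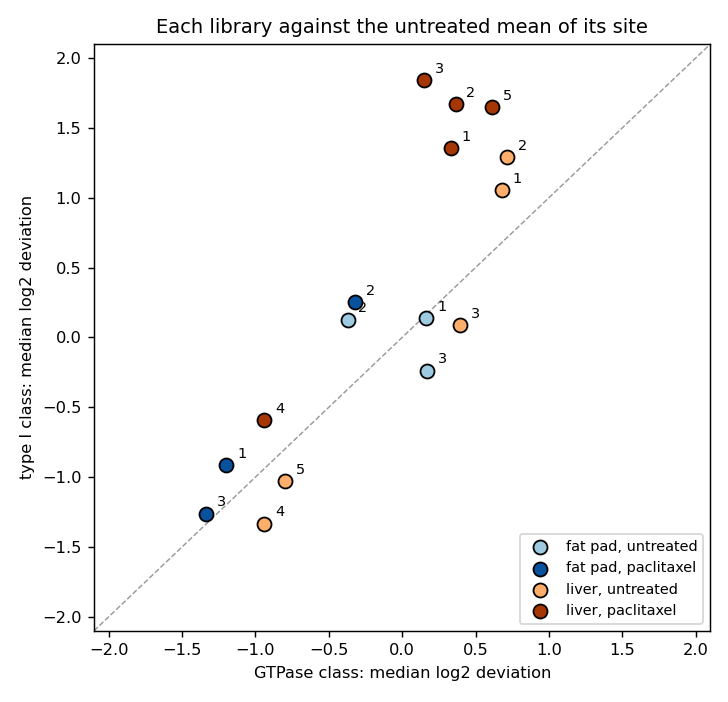
Type I score (y axis) against GTPase score (x axis), both median log2 deviations from the untreated mean of the site, for the 16 libraries (points, numbered by replicate; the dashed line marks equal scores). The 4 treated liver libraries other than replicate 4 lie well above the line with type I scores of 1.35 to 1.84, and treated fat pad replicates 1 and 3 lie low on both axes.

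The last comparison asked whether the difference after paclitaxel itself differed between the sites, as the interaction term of 1 fit over the 4 groups. None of the 37 genes passed in limma, against 2.22% higher and 0.793% lower of the 13868 genes tested. An unadjusted p under 0.05 was held by 13 of the 37 and by 3478 of the 13868. Estimates of 36 genes were above 0 (liver difference minus fat pad difference), with Iigp1 the exception, and 28.9% of all genes were below 0. The median was 1.80 for type I genes and 1.17 for GTPases, against 0.38 over all genes. The lowest adjusted p was that of Stat2 at 1.61 ± 0.46 (0.0678), followed by Oas3 at 2.85 ± 0.95 (0.1001) and Parp14 at 1.45 ± 0.51 (0.115).

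Stat2 was at 97.97, 125, 132, 62.1 and 134 TPM and Parp14 at 64.8, 68.5, 67.8, 33.5 and 80.6 TPM in treated liver tumors. In both genes the lowest of those was replicate 4. Parp14 stood at 46.5, 75.1 and 33.4 TPM in treated fat pad tumors, where replicate 2 was level with the untreated libraries. Of the GTPases the lowest adjusted p were those of Irgm2 (1.30 ± 0.51, 0.145) and Igtp (1.30 ± 0.58, 0.184), and Gbp6 gave 1.54 ± 0.77 (0.222). Gbp6 stood at 151, 97.9 and 159 and 41.4, 89.6 and 30.3 TPM in untreated and treated fat pad tumors, and at 116, 109, 102, 24.9 and 34.6 and 66.5, 90.7, 92.8, 27.7 and 101 TPM in untreated and treated liver tumors. Its fat pad groups were separate and its liver groups overlapped.

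Of the other named genes, Ifit1 gave 1.46 ± 0.995 (adjusted p = 0.344), Irf1 1.06 ± 0.61 (0.274), Ifit2 1.47 ± 0.86 (0.277), Isg15 2.16 ± 1.12 (0.231), Ddx58 1.34 ± 0.54 (0.151) and Ido1 1.43 ± 0.76 (0.242). Single libraries changed the count of calls. It was 1 without post_SC replicate 2 (Stat2, against 1.5% of all genes), 6 without pre_Liver replicate 2 (14.5%) and 2 without post_Liver replicate 4 (Stat2 and Oas3, 4.34%).

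Genes of the pathway outside the set were taken from a list of 58, of which 50 were tested in the fat pad response and 49 in the others. In the fat pad, 5 were lower after treatment (Cxcl10, Irf8, Gbp10, Isg20 and Psmb9) and 1 higher (Tlr7, an endosomal sensor of RNA), against 4.27% and 2.67% of all genes. Cxcl10, a T cell attracting chemokine, gave −1.34 ± 0.21 (adjusted p = 0.018) and Irf8, a transcription factor of myeloid cells, −0.97 ± 0.13 (0.0153). None of the 4 receptor genes passed there, and 1 had an unadjusted p under 0.05. In the site comparison 10 of 49 were lower in the liver, against 33.5% of all genes, the kinase Jak2 (−2.06 ± 0.52, adjusted p = 0.0165) among them. The receptor subunit Ifnar2 was higher (0.55 ± 0.16, adjusted p = 0.0244), against 15.4% of all genes. None of the 49 passed in the liver response or in the difference between responses. An unadjusted p under 0.05 was held by 12 and 10 of them, against 4123 of 13008 and 3478 of 13868 genes. Both shares were below the background. Of the ligands, Ifng ran from 1.01 to 7.71 TPM over the 16 libraries and did not pass in any comparison, and the highest value of Ifnb1 was 0.622 TPM. Ifnk, a type I interferon, stood at 0.123, 0 and 0.4795 TPM in untreated and 4.04, 3.62 and 0.2302 TPM in treated fat pad tumors, high in treated replicates 1 and 2 only (1.37 ± 0.54, adjusted p = 0.155). It was at most 0.257 TPM in untreated liver tumors and at 0.235, 0.935, 0.954, 0.114 and 3.64 TPM in treated ones, and was too low for the filter there.

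**Figure D5:**
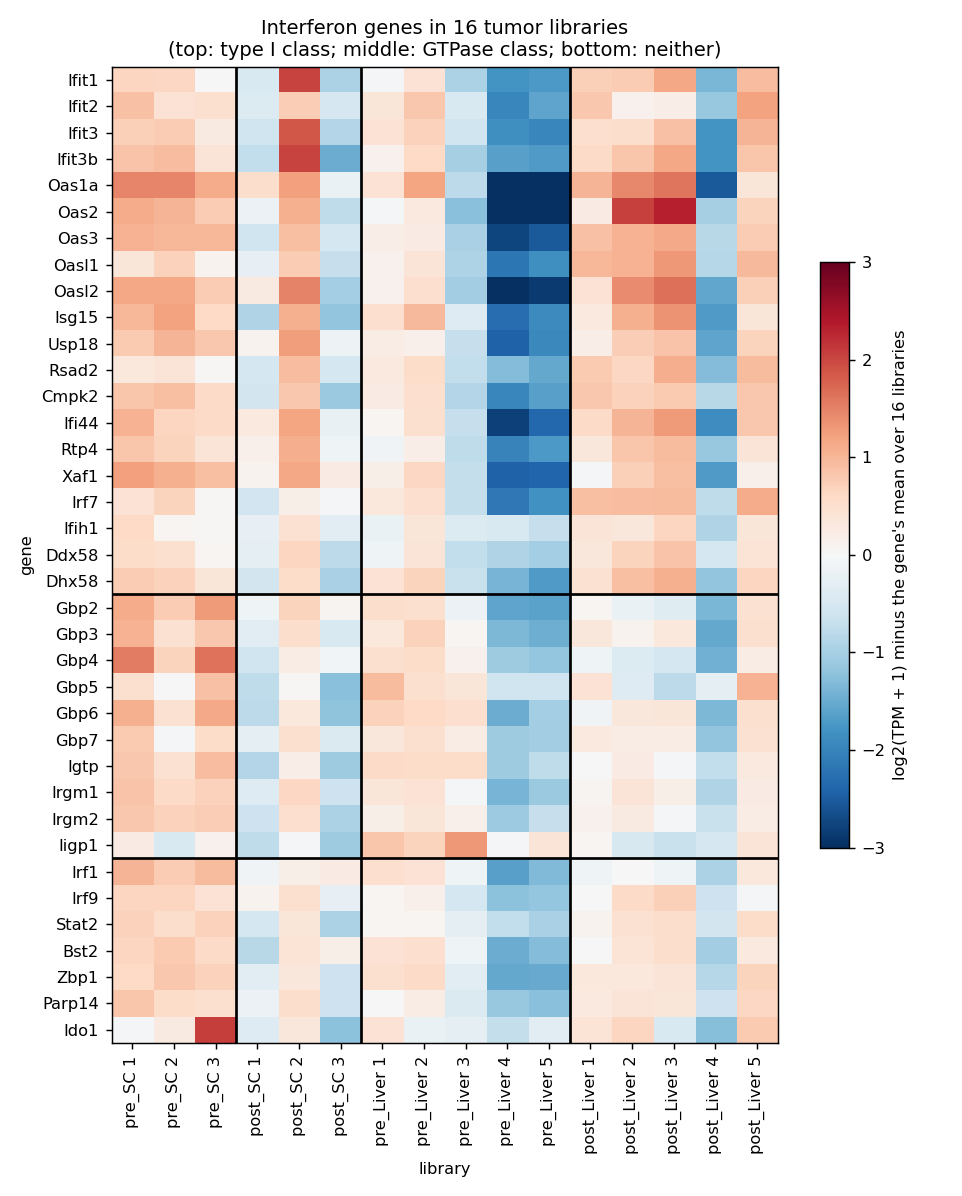
Log2(TPM + 1) of the 37 genes (rows, by class) in the 16 libraries (columns, by group), as the difference from each gene's mean over all libraries (colour, log2 units). Pre_Liver replicates 4 and 5 and post_Liver replicate 4 are blue through most rows, post_SC replicates 1 and 3 are pale to blue, and post_SC replicate 2 is red in the upper, type I rows.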

How the data were processed

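Poly(A) RNA of 16 tumor cell suspensions was measured. Tools listed in the submitters' processing notes are fastp and StringTie, with the build GRCm38/mm10 and no versions. The authors deposited 3 tables. The liver table holds FPKM as the authors deposited it, with column sums of 511644 to 547589, and the fat pad table holds TPM as deposited. The untreated table, deposited by the authors, is a score, namely TPM plus a gene's constant, the same for 6 libraries and of opposite sign for pre_Liver replicates 4 and 5. It holds values below 0 for 2376 genes, so it did not hold the plain normalized values that the design assumed. The constant was removed for 17398 genes (it agreed within each of the 2 sets of libraries to 7.75e-06), with the deposited values as an alternative. No count of reads can be recovered, so depth and counting error are unknown. Levels in the text are TPM over the 17147 genes in all tables, without the 24 date-like names in each of 2 tables and 1 repeated name, and with 375 and 365 altered names (points for hyphens, a leading X) restored there.

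Each comparison was fitted on log2(value + 1) over all genes with a mean of at least 1 in the libraries of the fit, with limma 3.58.1 in R 4.3.3 (lmFit, eBayes with a mean-variance trend), and Benjamini-Hochberg adjusted p under 0.05 was called. Fold changes of low genes are understated on this scale. The fat pad fit used the TPM table, the liver fit the FPKM table, the site fit the restored untreated table, and the difference between responses joint TPM. The liver and site comparisons share the untreated liver libraries, and the fat pad and site comparisons share the untreated fat pad libraries. The difference between responses uses all 4 groups again, so the comparisons are not independent of each other. The fitting code was also run on simulated data in which genes varied independently, unlike the genes of this set, which move together. Tables and plots used NumPy 2.4.6, pandas 2.3.3 and matplotlib 3.10.9 under Python 3.11.15.

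The genes, classes and pathway lists were chosen with earlier results of these data known. 1 gene of the pathway list is not reported here and was left out of its counts. Values and full statistics are given for Ifit1, Irf1, Igtp and the gene of each role group with the lowest p in a comparison; others are named by p, up to 4 a group, or where a short count is listed. Alternatives covered the pseudocount, the filter, scaling, the eBayes settings, a block on the replicate number, and leaving out libraries. Whether replicate numbers pair libraries was checked by the correlation of their deviations from group means, which ran from −0.16 to 0.13 in the fat pad and from −0.12 to 0.75 in the liver, so the numbers were not treated as pairs.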

Additional observations from a re-analysis of the deposited data

Results flagged for a closer look

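In groups of 5 libraries, 17 of 74 gene and group combinations had 1 library set far apart from the rest by Dixon's criterion, where chance gives about 1 in 20. All 17 were the lowest value in post_Liver replicate 4, so they are 1 library seen through genes that move together and not 17 separate events. Its levels were 20.4 TPM for Ifit1, 17.3 TPM for Ifit3, 7.59 TPM for Ifit3b, 22.7 TPM for Oas3 and 24.5 TPM for Oasl1. Those of Usp18, Rsad2, Cmpk2 and Ifi44 were 25.1, 7.398, 14.8 and 32.3 TPM. The sensors Ifih1 and Dhx58 stood at 18.2 and 16.9 TPM, and Irf7 at 178 TPM. Zbp1 and Parp14 were at 97.1 and 33.5 TPM. Among the GTPases it held 26.1 TPM of Gbp3, 19.1 TPM of Gbp7 and 104 TPM of Irgm1. The same library had the highest summed hepatocyte level of the treated liver tumors, 93251 TPM, and the part of that in the low values was not tested. The criterion was applied only to the groups of 5, so the high Ifit1 value of treated fat pad replicate 2 was not judged by it.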

How the results depend on the processing

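The 3 calls of the fat pad response became 1 with no filter on low values and 1 without the mean-variance trend, and leaving out 1 library in turn gave 0 to 23. Ifit1 there changed sign to 0.11 without post_SC replicate 1 and to 0.37 without post_SC replicate 3, in a leave-one-out range of −1.12 to 0.37. In the site comparison, the median of ratios gave 3 genes lower and 1 higher (Iigp1), and leaving out 1 library in turn gave 0 to 31 lower. With the untreated table as deposited 1 gene was also higher, against 2615 of 13616 genes. With pre_Liver replicates 1 to 3 alone 1 gene was higher (14.7% of all genes), and the GTPase median was −0.36. Leaving out 1 library in turn called 0 to 4 genes higher in the liver response and 0 to 6 in the difference between responses. Liver medians were 2.24 for type I genes and 0.98 for GTPases, with 27 calls, against pre_Liver replicates 4 and 5 only, and −0.58 for GTPases against replicates 1 to 3 only. Liver estimates near 0 changed sign: Irf1 to −0.12 (median of ratios), −0.061 (without pre_Liver replicate 4, in a leave-one-out range of −0.061 to 0.49), −0.46 (replicates 1 to 3 only) and −0.27 (the added setting without 3 libraries), and Ido1 to −0.047 (median of ratios) and −0.066 (quantile normalization). Igtp became 0.0099 (quantile normalization), 0.14, 0.12 and 0.13 (without pre_Liver replicate 1, 2 or 3), 0.15 (without post_Liver replicate 4, in a leave-one-out range of −0.29 to 0.15) and 0.88 (replicates 4 and 5 only), and Gbp4 0.68 (replicates 4 and 5 only). The cause was not tested. Other pseudocounts, a mean of at least 5, robust eBayes and TPM over shared genes kept each count of calls within 1.5 times.

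With a replicate block, 0 genes were called in the fat pad (limma; 3 without the block), where 217 of 13364 genes were lower. It called 11 higher in the liver response (18.7% of all genes) and 16 higher in the difference between responses (11.6%). Before treatment 1 was higher, against 1836 of 13727 genes, and the GTPase median was −0.36. The numbers do not pair the libraries by the check used, and only fat pad replicate 1 and liver replicate 4 correlated best with their own number. Unknown depth and 3 fat pad libraries a group limit what could be detected.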
